A study of Mus musculus with 12 samples.

Results

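The genes described here are 9 genes of the Notch pathway in mouse hepatic progenitor cells, the receptors Notch1, Notch2 and Notch3, the ligands Jag1, Jag2 and Dll1, the target genes Hes1 and Hey1, and Dtx4. All probes that the array's annotation assigns to them were taken, which gave 11 of 45281 probes. The probes were taken by gene name, whatever their values. Of the 11 probes 8, standing for 7 of the 9 genes, passed the detection filter (detection p under 0.05 on at least 4 of 12 arrays), as did 19915 probes of the whole array. The cells were EpCAM, CD24 and CD133 positive and negative for DAPI, CD45, CD31 and TER119 at the sort, and they were cultured with IL-6, HGF, EGF and dexamethasone. All cells went without serum for 24 hours. The control group then received vehicle (0.1% BSA), the second group IL-4 at 50 ng/mL and the third IL-13 at 50 ng/mL, with 4 arrays each. Neither the mouse strain nor the time in cytokine is given in the sources used here. The labels do not say that replicates were separate animals or cultures, so the p-values refer to the spread among these samples alone, and that spread may be technical.

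Notch receptors are membrane proteins that are activated by ligands of the Jagged and Delta-like families on a neighbouring cell. Ligand binding leads to cleavage by ADAM proteases and then by gamma-secretase, and the freed intracellular domain enters the nucleus, binds RBPJ and a Mastermind protein, and switches on target genes such as the transcriptional repressors of the HES and HEY families. In the liver, Jagged1 and Notch2 are required for bile duct formation, and their loss causes the duct paucity of Alagille syndrome. Deltex proteins, among them the product of Dtx4, are ubiquitin ligases that act on Notch receptors during their uptake and turnover. IL-4 and IL-13 act through shared receptor chains and the transcription factor STAT6.

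Promoter windows from RefSeq (build GRCm38.p6, 250 bases before to 50 after the transcript start) were read for 6 of the 9 genes, Notch1, Notch2, Notch3, Jag1, Jag2 and Dll1, with 7 windows in all since Dll1 has a pair of starts. Hes1, Hey1 and Dtx4 were not matched. The windows of Notch1 and Notch2 are shown because, of the 3 member receptors, these were measured above background on every array. The Notch1 window (chr2:26503773-26504072, minus strand) holds a STAT6 motif (TTC and GAA with 4 bases of any kind between them), marked in capitals, starting 92 bases before the transcript start. The Notch2 window (chr3:98013288-98013587, plus strand) holds the letters CACGNG of HES and HEY sites, again in capitals, starting 42 bases before the start.
Notch1: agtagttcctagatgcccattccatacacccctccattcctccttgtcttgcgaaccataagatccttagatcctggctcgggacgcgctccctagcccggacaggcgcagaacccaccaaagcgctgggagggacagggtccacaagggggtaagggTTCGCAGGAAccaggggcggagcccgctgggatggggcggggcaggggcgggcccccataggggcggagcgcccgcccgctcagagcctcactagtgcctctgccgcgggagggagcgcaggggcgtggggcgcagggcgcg
Notch2: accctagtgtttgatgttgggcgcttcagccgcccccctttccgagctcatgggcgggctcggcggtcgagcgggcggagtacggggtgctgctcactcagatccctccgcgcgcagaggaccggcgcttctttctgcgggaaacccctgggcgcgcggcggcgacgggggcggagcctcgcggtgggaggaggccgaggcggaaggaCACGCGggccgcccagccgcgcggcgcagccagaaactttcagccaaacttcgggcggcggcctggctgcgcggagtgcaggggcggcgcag
On both strands, the STAT6 motif was present in 1 of the 7 windows, against 6.95% of all 32851 promoter windows of that length. CACGNG was present in 6 of the 7 windows, against 27.5% of all, and TGGGAA, the core of the RBPJ motif, in 0 of 7, against 25.6%. The windows with CACGNG belong to 5 of the 6 genes, since both Dll1 windows hold it. The comparison with all windows was not matched for base content. As strings of letters none of the 3 motifs contains another, and a match is a description of letters, not of a bound site.

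Each of the 2 beadchips carried 2 arrays of every group. The groups kept the same places on both chips, so place and group cannot be told apart. An array detected 40.8% to 43.9% of its probes, the correlation across genes of arrays within a group was 0.993 to 0.997, and 0 pairs of arrays were identical. Of 8 listed markers of duct and progenitor cells 6 had an annotated probe and 5 passed the filter (Krt19, Sox9, Krt7, Cd24a and Prom1). Prom1 was near background, with a control mean of 4.48 and detection on 1 control, 1 IL-4 and 3 IL-13 arrays. The probe of Epcam was detected on 0 arrays although the cells had been sorted for EpCAM. For other cells, only markers with an annotated probe are counted. Of these, 6 of 10 endothelial (Pecam1 among them) and 7 of 12 stellate cell and fibroblast markers were above background on 0 arrays. So were 3 of 7 hepatocyte markers (Alb among them), 3 of 7 macrophage, 3 of 6 lymphocyte and 1 of 5 erythroid markers. In bulk RNA, fewer cells of a type and less RNA per cell cannot be told apart. Hemoglobin transcripts had a mean log2 signal of 5.95 on control 4, 6.77 on IL-4 2 and 8.95 on IL-4 4, while the remaining arrays lay at 4.40 to 5.36, and results that rest on these 3 arrays are also given without them.

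Among the 7 genes that could be tested, Dtx4 rose and Hey1 fell with each cytokine, and the other 5 did not pass the threshold. The test was limma's moderated test on normalised log2 signals of all 19915 probes, with a Benjamini-Hochberg adjusted p under 0.05, and a gene was read from its brightest probe. With IL-4 2 members passed, where 2.92% of 10453 genes did. Of the members 1 was higher and 1 lower, where 1.92% of all genes were higher and 0.995% lower. With IL-13 2 members passed as well, where 4.53% of all genes did, again 1 higher and 1 lower (2.92% and 1.61% of all genes). The members were proposed with results of these data known, so these counts are a description. The median log2 difference of the 7 genes was -0.03 with IL-4 and 0.04 with IL-13, and that of all genes -0.01 in each. Both cytokine comparisons use the same 4 control arrays, so that their values for a gene are not independent of each other.

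**Figure D1:**
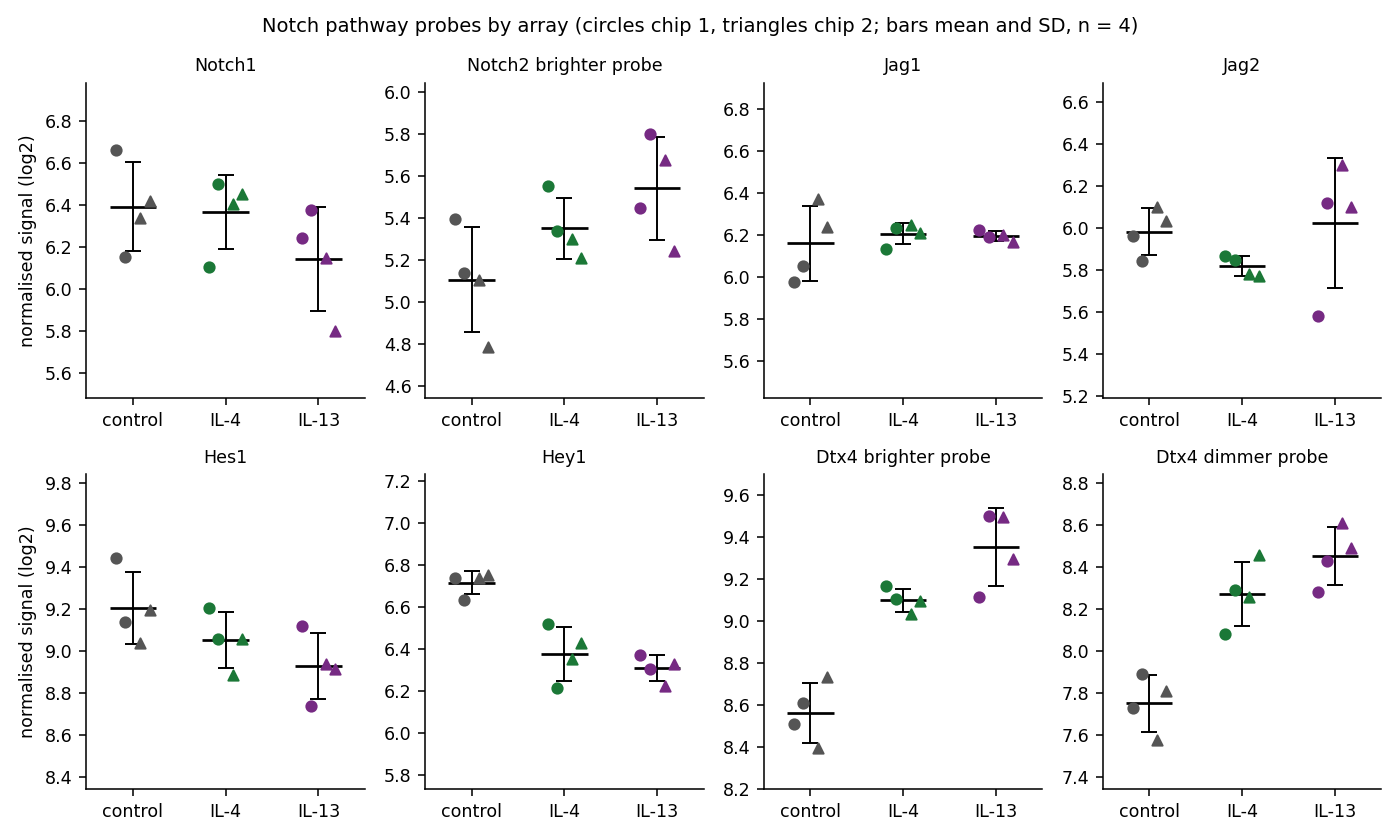
Normalised signal (log2, each panel spanning 1.5 units) of the 8 Notch pathway probes that passed the detection filter, by group; each symbol is an array, circles on chip 1 and triangles on chip 2, with horizontal bars at the mean and error bars of 1 SD (n = 4). For both Dtx4 probes every treated array lies above every control array, and for Hey1 every treated array lies below, while the groups of the other 5 panels overlap.

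Of the 3 receptor members, Notch3 did not pass the detection filter and was not tested. Neither Notch1 nor Notch2 passed with either cytokine, where 2.92% (IL-4) and 4.53% (IL-13) of all genes did. Notch1, the best studied of the family, had log2 signals of 6.66, 6.15, 6.34 and 6.42 on control arrays 1 to 4, of 6.11, 6.50, 6.41 and 6.45 with IL-4 and of 6.24, 6.38, 6.15 and 5.80 with IL-13. All 3 groups overlapped, with the lowest value on IL-13 4. The log2 difference was -0.03 ± 0.13 (SE) with IL-4 (95% interval -0.29 to 0.24, adjusted p from limma 0.964) and -0.25 ± 0.13 with IL-13 (interval -0.52 to 0.01, adjusted p 0.347). On chip 1 the IL-13 difference was -0.10 and on chip 2 -0.40.

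Notch2 is the receptor whose mutation in humans, beside that of JAG1, underlies Alagille syndrome. Its brighter probe read 5.40, 5.14, 5.10 and 4.79 on the control arrays, 5.56, 5.34, 5.30 and 5.21 with IL-4 and 5.45, 5.80, 5.68 and 5.25 with IL-13. Treated arrays tended to lie higher, but each treated group overlapped the controls. The difference was 0.24 ± 0.13 with IL-4 (interval -0.03 to 0.51, adjusted p from limma 0.479) and 0.43 ± 0.13 with IL-13 (interval 0.17 to 0.70, adjusted p 0.0691), and it was positive on both chips in each comparison. The IL-13 value lay close to the threshold: with the chip as a block its adjusted p was 0.0412, with 75th percentile scaling 0.0463, without control 1 0.0318 and without IL-13 4 0.0262, whereas over all alternatives the difference ranged from 0.14 to 0.53 and the adjusted p up to 0.351. A dimmer Notch2 probe was detected on 0 control, 1 IL-4 and 0 IL-13 arrays and gives no comparison.

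Notch3, a receptor known mainly from vascular smooth muscle and pericytes, was near background. Its probe was detected on 0 of 4 control, 1 of 4 IL-4 and 1 of 4 IL-13 arrays, with group means of 4.35 ± 0.10 (SD, n = 4), 4.38 ± 0.14 and 4.41 ± 0.14 on the log2 scale. The lowest signal among detected probes lay between 4.50 and 4.57 on these arrays, so no fold is given. The probe of the ligand gene Dll1 was in the same range, with 0 control, 1 IL-4 and 2 IL-13 arrays detected and group means of 4.44 ± 0.09, 4.41 ± 0.11 and 4.53 ± 0.12. A signal at this level was not distinguishable from background on most arrays, which does not show that the transcripts are absent.

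Both Jagged ligands were measured on all 12 arrays. Jag1, the ligand of bile duct formation, read 5.98, 6.05, 6.37 and 6.24 on the control arrays, 6.14, 6.23, 6.25 and 6.21 with IL-4 and 6.23, 6.19, 6.20 and 6.17 with IL-13. All treated arrays fell inside the span of the controls. Its difference was 0.05 ± 0.09 with IL-4 (interval -0.13 to 0.23) and 0.04 ± 0.09 with IL-13 (interval -0.14 to 0.21), with limma adjusted p of 0.896 and 0.898. The control arrays themselves differed between the chips, and the IL-4 difference was 0.17 on chip 1 and -0.08 on chip 2. For Jag2, the other Jagged ligand, the values were 5.96, 5.84, 6.10 and 6.03 in controls, 5.87, 5.85, 5.78 and 5.77 with IL-4 and 5.58, 6.12, 6.30 and 6.10 with IL-13. IL-13 arrays held both the lowest and the highest of these values, and the groups overlapped. The differences were -0.17 ± 0.12 with IL-4 (interval -0.41 to 0.08) and 0.04 ± 0.12 with IL-13 (interval -0.20 to 0.29), neither past the threshold (adjusted p from limma 0.640 and 0.911).

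Hes1, the main HES family repressor induced by Notch, was measured well above background. Its log2 signals were 9.44, 9.14, 9.04 and 9.20 on the control arrays, 9.21, 9.06, 8.89 and 9.06 with IL-4 and 9.12, 8.74, 8.94 and 8.91 with IL-13. Group means stepped down from control (9.21 ± 0.17, SD, n = 4) to IL-4 (9.05 ± 0.13) and IL-13 (8.93 ± 0.16), but neighbours in this order overlapped. The difference was -0.15 ± 0.10 with IL-4 (interval -0.37 to 0.06, adjusted p from limma 0.614) and -0.28 ± 0.10 with IL-13 (interval -0.49 to -0.06, adjusted p 0.164). It was negative on both chips with each cytokine, and under the alternatives the IL-13 adjusted p lay between 0.0732 and 0.618.

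Hey1, a HEY family repressor that is also a direct Notch target, fell with both cytokines. It read 6.74, 6.63, 6.74 and 6.75 on the control arrays, 6.52, 6.21, 6.35 and 6.43 with IL-4 and 6.37, 6.31, 6.22 and 6.33 with IL-13. All 8 treated arrays lay below all 4 control arrays, while the IL-4 and IL-13 arrays overlapped. Of all genes, 4.11% (IL-4) and 4.92% (IL-13) lay wholly below the controls. The fall was 1.33-fold with IL-13 (log2 difference -0.41 ± 0.08, interval -0.57 to -0.24, adjusted p from limma 0.00451). With IL-4 it was 1.26-fold (-0.34 ± 0.08, interval -0.51 to -0.17, adjusted p 0.0262). By size Hey1 was at rank 91 of the 104 genes that fell with IL-4 and at rank 92 of the 168 that fell with IL-13.

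Without background correction the fall of Hey1 was smaller, with a log2 difference of -0.18 for IL-4 (adjusted p 0.0143) and -0.21 for IL-13 (0.00307), and with the deposited log2 values it was -0.22 and -0.23. The IL-4 call also depended on single arrays. Its adjusted p rose to 0.0743 without control 1, to 0.0761 without control 3, to 0.0525 without control 4, to 0.110 without IL-4 2 and to 0.0697 without IL-4 3. It was 0.0583 in a fit of the control and IL-4 arrays alone and 0.300 without the 3 arrays of high hemoglobin signal (log2 difference -0.27). On chip 1 alone the difference was -0.32 (adjusted p 0.261) and on chip 2 alone -0.36 (0.420). The IL-13 call was kept when any 1 array was left out (adjusted p at most 0.0203) and without the 3 hemoglobin-rich arrays (0.0136), with differences of -0.35 on chip 1 (adjusted p 0.264) and -0.47 on chip 2 (0.106).

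Dtx4 was the member of largest change, and both of its probes rose past the threshold with each cytokine. The brighter probe read 8.51, 8.61, 8.39 and 8.73 on the control arrays, 9.16, 9.10, 9.03 and 9.09 with IL-4 and 9.11, 9.50, 9.49 and 9.30 with IL-13. Even the lowest treated array, IL-4 3, stood above the highest control array, control 4. The raw signal before normalisation was 423 to 537 on control, 540 to 664 on IL-4 and 670 to 825 on IL-13 arrays. The dimmer probe read 7.73, 7.89, 7.57 and 7.81 in controls, 8.08, 8.29, 8.26 and 8.46 with IL-4 and 8.28, 8.43, 8.61 and 8.49 with IL-13. Again no treated array reached down to the controls, and the treated groups overlapped each other. Of all genes, 4.32% (IL-4) and 6.03% (IL-13) lay wholly above the controls.

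With IL-4 the brighter Dtx4 probe rose 1.45-fold (log2 difference 0.54 ± 0.10, interval 0.34 to 0.74, adjusted p from limma 0.00302) and the dimmer one 1.44-fold (0.52 ± 0.10, adjusted p 0.00444). With IL-13 the brighter probe rose 1.73-fold (0.79 ± 0.10, interval 0.59 to 0.99, adjusted p 3.40e-05) and the dimmer one 1.63-fold (0.70 ± 0.10, adjusted p 0.000148). By size Dtx4 was at rank 113 of the 201 genes that rose with IL-4 and at rank 70 of the 305 that rose with IL-13. With IL-4 the brighter probe differed by 0.58 on chip 1 (adjusted p 0.0659) and 0.50 on chip 2 (0.231), and with IL-13 by 0.75 and 0.83. On chips 1 and 2 the dimmer probe differed by 0.38 and 0.67 with IL-4 and by 0.54 and 0.86 with IL-13. The IL-13 call of the dimmer probe was lost in 1 of 26 alternatives (adjusted p from limma 0.0531). Without the 3 arrays of high hemoglobin signal the IL-4 rise was 0.59 by the brighter probe (adjusted p 0.0306) and 0.44 by the dimmer one (0.129), and the IL-13 rises were 0.85 and 0.72. With the deposited log2 values the IL-4 rise of the dimmer probe was 0.32 (adjusted p 0.0394).

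**Figure D2:**
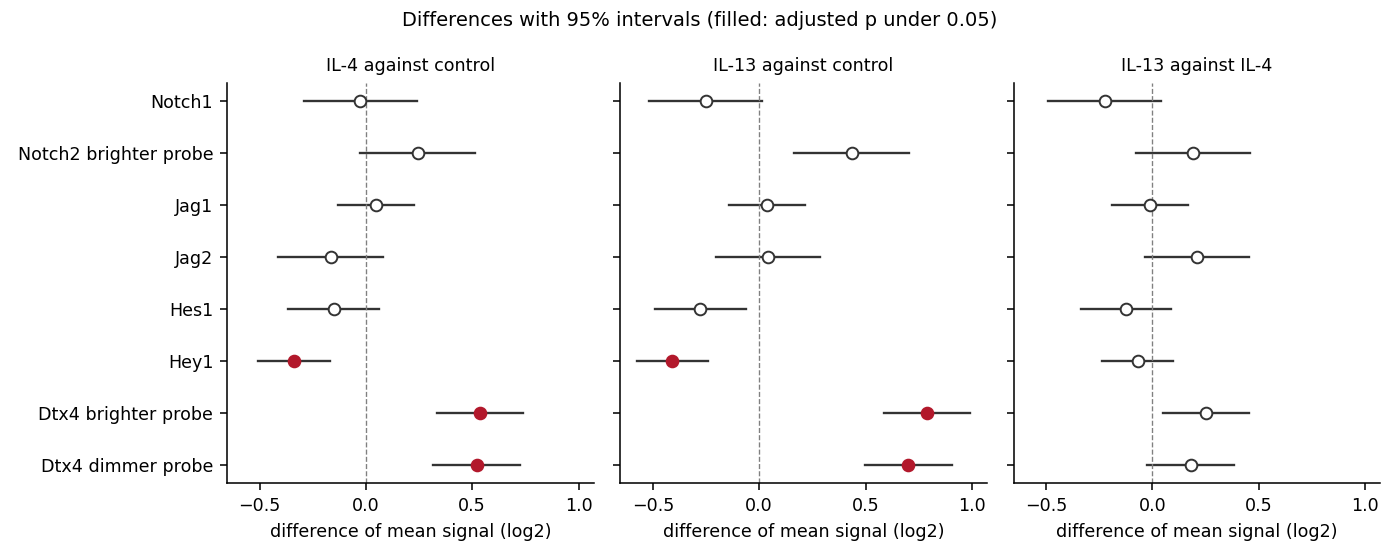
Difference of mean normalised signal (log2) for the 8 tested probes in the 3 comparisons, with 95% intervals from the model as lines and filled points where the adjusted p was under 0.05. The Dtx4 and Hey1 probes are filled in both cytokine comparisons, and 0 probes are filled between the cytokines.

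Between the cytokines at equal dose, 0 members passed, as did 0 of all 19915 probes in limma (0%). At an unadjusted p under 0.05 there were 1574 probes (7.9%) and 1 member, Dtx4. The IL-13 and IL-4 arrays overlapped for all members tested, where 5.31% of all genes did not overlap. The brighter Dtx4 probe was higher with IL-13 by 0.25 ± 0.10 (interval 0.05 to 0.46, adjusted p 0.570), and the dimmer one by 0.18 ± 0.10 (interval -0.02 to 0.38, adjusted p 0.659). The interval for Hey1 was -0.24 to 0.10 and that for Hes1 -0.34 to 0.09. These intervals for Hey1 and Hes1 hold 0, while that of the brighter Dtx4 probe does not, before adjustment over all probes.

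The rest of the pathway was read from a list of 74 genes by role, which holds the 9 members. Of these genes 65 had an annotated probe, the other 9 are not analysed here, and 49 passed the detection filter. With IL-4 1 of the 49 rose and 2 fell, and with IL-13 2 rose and 3 fell. Without the members, 42 genes remained, of which 0 rose and 1 fell with IL-4 (2.38%) and 1 rose and 2 fell with IL-13 (7.14%), against the 2.92% and 4.53% of all genes given above. The median log2 difference of the 49 genes was -0.01 with IL-4 and 0.04 with IL-13.

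With IL-13, 5 of the 10 roles held 0 called genes: receptors (3 tested), ligands (2), ligand endocytosis (3), glycosylation (2) and cleavage (8). Since 4.53% of all genes were called, 0 calls among so few genes are near that share. These roles held 0 with IL-4 as well, as did the nuclear complex and the corepressors, where 2.92% of all genes were called. The 3 tested genes of ligand endocytosis (Mib1, Mib2, Neurl1a), the 2 of receptor glycosylation (Poglut1, Rfng) and the 8 of receptor cleavage, which include Furin, Adam10, Adam17 and the gamma-secretase subunit genes Psen2, Ncstn and Psenen, all missed the threshold with both cytokines. Their differences lay between -0.25 (Adam17, IL-4) and 0.22 (Adam10, IL-13). Notch4, the receptor of the list that is not a member, had a mean log2 signal of 5.35. It differed by -0.15 ± 0.10 with IL-4 and -0.25 ± 0.10 with IL-13 (adjusted p from limma 0.628 and 0.214). Rbpj, the DNA-binding partner of the receptor's intracellular domain, was dim (control mean 4.78 ± 0.19, SD, n = 4) and differed by 0.19 ± 0.12 with IL-4 and 0.30 ± 0.12 with IL-13 (adjusted p from limma 0.589 and 0.206). Of the other listed targets, Nrarp, a feedback inhibitor of Notch, differed by 0.00 ± 0.08 with IL-4 and 0.12 ± 0.08 with IL-13 (adjusted p from limma 0.990 and 0.461). The brightest Hes6 probe differed by -0.01 ± 0.08 with IL-4 and -0.02 ± 0.08 with IL-13 (adjusted p from limma 0.970 and 0.959). Its further probes differed by -0.09 and -0.23 with IL-4 and by -0.20 and -0.27 with IL-13, and were not called. The probes of Hes5, Hes7, Hey2 and Heyl did not pass the detection filter.

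**Figure D3:**
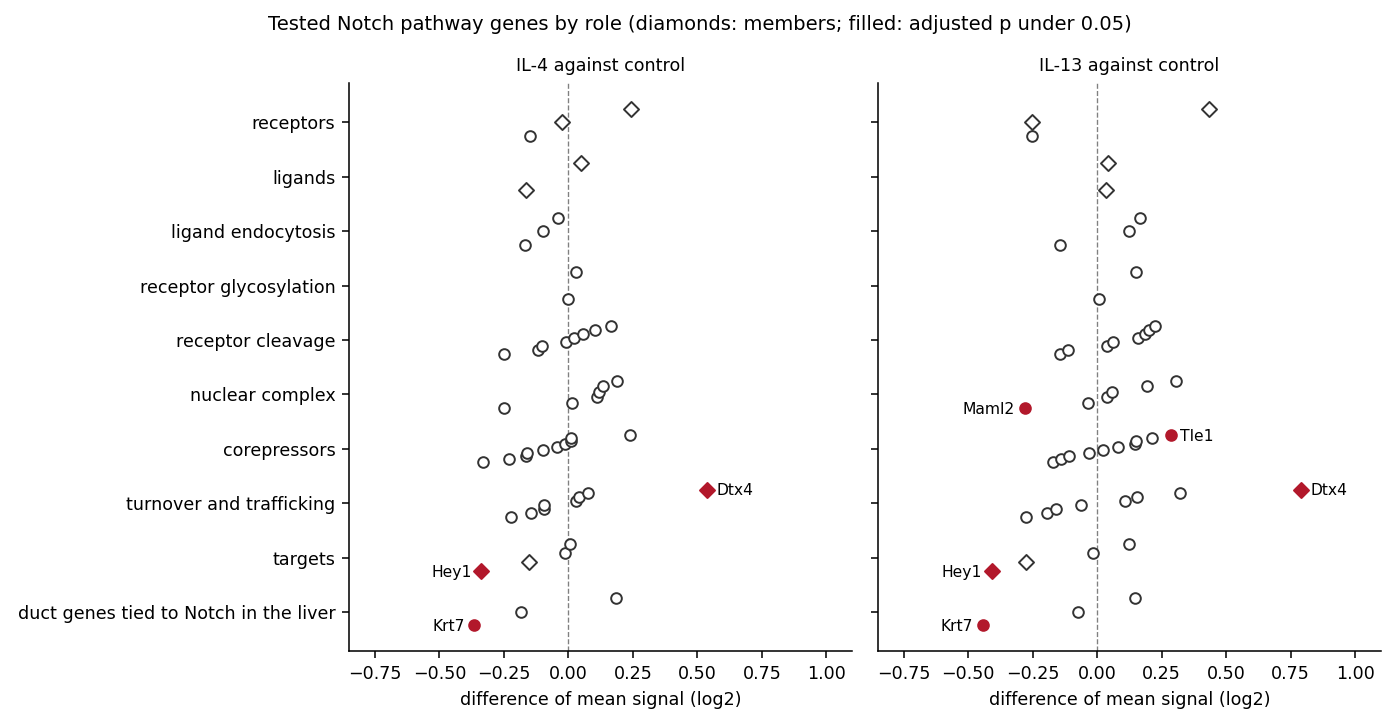
Difference of mean normalised signal (log2) against control for the 49 tested genes of the Notch pathway list, in rows by role, with IL-4 on the left and IL-13 on the right; diamonds are members, circles other genes, and filled and named points have an adjusted p under 0.05. Dtx4 stands furthest to the right in both panels, and Hey1 and Krt7 furthest to the left.

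In the group of duct genes tied to Notch in the liver, Krt7, a keratin of bile duct cells, fell with both cytokines. Its mean went from 9.55 ± 0.12 (SD, n = 4) in controls to 9.19 ± 0.07 with IL-4 and 9.11 ± 0.06 with IL-13. Its log2 differences were -0.36 ± 0.08 and -0.44 ± 0.08 (adjusted p from limma 0.0145 and 0.00201), and each treated group lay wholly below the controls. The IL-4 call was lost without control 2 (0.0641), without IL-4 4 (0.0616) and without the 3 hemoglobin-rich arrays (0.244). The other tested genes of that group did not pass: Sox9, the transcription factor of duct and progenitor cells, differed by -0.18 with IL-4 and -0.07 with IL-13, and the duct keratin gene Krt19 by 0.18 and 0.15.

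Another 2 genes passed with IL-13 alone of the 2 comparisons with control, each close to the threshold. Maml2, which encodes a Mastermind coactivator, had a mean of 7.49 ± 0.08 in controls, 7.24 ± 0.05 with IL-4 and 7.21 ± 0.06 with IL-13 (SD, n = 4). Its differences were -0.25 ± 0.07 with IL-4 (adjusted p from limma 0.0987) and -0.28 ± 0.07 with IL-13 (0.0391). Tle1, which encodes a Groucho-type corepressor, had means of 6.78 ± 0.06, 6.79 ± 0.12 and 7.06 ± 0.04, with differences of 0.01 ± 0.08 (0.979) and 0.28 ± 0.08 (0.0460). The IL-13 call of Maml2 was lost on leaving out any of 9 arrays in turn, that is, all but control 3, control 4 and IL-4 2, with adjusted p between 0.0511 and 0.114. That of Tle1 was lost for 11 of the 12 arrays, all but IL-4 1, with adjusted p between 0.0545 and 0.116. Both IL-13 calls were also lost without the hemoglobin-rich arrays, where 3 genes of the list passed. A further Maml2 probe near background (mean log2 signal 4.46) differed by -0.10 with IL-13 and did not pass (adjusted p from limma 0.754). With IL-13, 2 further Tle1 probes differed by 0.08 and 0.27 and did not pass either (adjusted p from limma 0.738 and 0.131). Without background correction the IL-13 difference was -0.19 for Maml2 and 0.17 for Tle1, and with the deposited log2 values that of Tle1 was 0.15 (adjusted p 0.147). Itch, the gene of a ubiquitin ligase that acts on Notch, did not pass by its brighter probe (IL-13 difference -0.28, adjusted p 0.0654), though a dimmer one did (-0.37, adjusted p 0.0394).

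Among the marker lists of other cell types, Acta2 (with IL-13) and Apoa1 (with both cytokines) were the genes called. In the stellate cell and fibroblast list the mean log2 signal over its 4 tested genes was 5.31 to 5.58 on control arrays, 5.06 to 5.33 with IL-4 and 4.87 to 5.27 with IL-13. The Acta2 difference was -2.07 with IL-13. The other tested genes of that list, Des, Pdgfra and Ngfr, differed by 0.16, 0.05 and 0.04 with IL-13 and were not called. In number the lower list mean therefore comes from Acta2. Des, Pdgfra and Ngfr lay near background (control means 4.59, 4.50 and 4.49, detected on 2, 1 and 1 of 4 control arrays). Their values thus cannot show whether the amount of such cells differed. The hepatocyte list (4 tested genes, Hnf4a, Ttr, Serpina1a and Apoa1) lay at 6.71 to 6.79, 6.62 to 7.34 and 6.91 to 7.43, with Apoa1 alone called. The macrophage list (2 tested genes, Cd14 and Csf1r) lay at 7.24 to 7.34, 7.32 to 7.49 and 7.39 to 7.53, with 0 called. The endothelial list (2 tested genes) lay at 4.82 to 5.06, 4.79 to 5.05 and 4.63 to 4.90, with 0 called. The erythroid list (4 tested genes) lay at 4.44 to 5.58, 4.60 to 7.84 and 4.44 to 4.71, with 0 called. Of the 6 lymphocyte markers with an annotated probe 0 could be tested. The duct and progenitor list itself (5 tested genes) lay at 8.56 to 8.77, 8.55 to 8.64 and 8.61 to 8.67, with Krt7 alone called. Of the defining markers, Col1a1, Lrat and Pdgfrb for stellate cells, Alb for hepatocytes and Adgre1 for macrophages were detected on 0 arrays. Hnf4a, Ttr and Serpina1a for hepatocytes and Cd14 and Csf1r for macrophages were detected on all 12, with control means of 9.14 for Hnf4a and 9.78 for Cd14. The part of these signals in the results for Dtx4, Hey1 and Krt7 was not tested.

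The genes whose pattern over the 12 arrays was most like that of a called member were found by the root mean square difference of log2 deviations from each gene's own mean. For Dtx4 these were Klf4 (0.125), Bhlhe40 (0.131) and Tsc22d3 (0.139), all of them genes of transcriptional regulators, against a median of 0.376 over 10452 genes. Klf4 differed by 0.68 with IL-4 and 0.78 with IL-13, Bhlhe40 by 0.62 and 0.78, and Tsc22d3 by 0.69 and 0.82. For Hey1 they were Frmd4a (0.0706), Bdh2 (0.0851) and Ank3 (0.0859), against a median of 0.230. Frmd4a differed by -0.39 with IL-4 and -0.35 with IL-13, Bdh2 by -0.39 and -0.42, and Ank3 by -0.27 and -0.41. These are values of 1 probe a gene: with all probes of a gene averaged, Frmd4a differed by -0.06 with IL-4 (adjusted p from limma 0.75) and -0.09 with IL-13 (0.506), Ank3 by -0.27 with IL-13, and Tsc22d3 by 0.44 and 0.50. Without background correction Bdh2 differed by -0.19 and -0.20, and with the deposited log2 values Klf4 differed by 0.43 with IL-4. Ank3 was not called with IL-4 (adjusted p from limma 0.0688). The IL-4 call of Bdh2 (0.0302) was lost in 11 of 28 alternatives. The arrays are the same for all of these genes, and the likeness is a description.

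**Figure D4:**
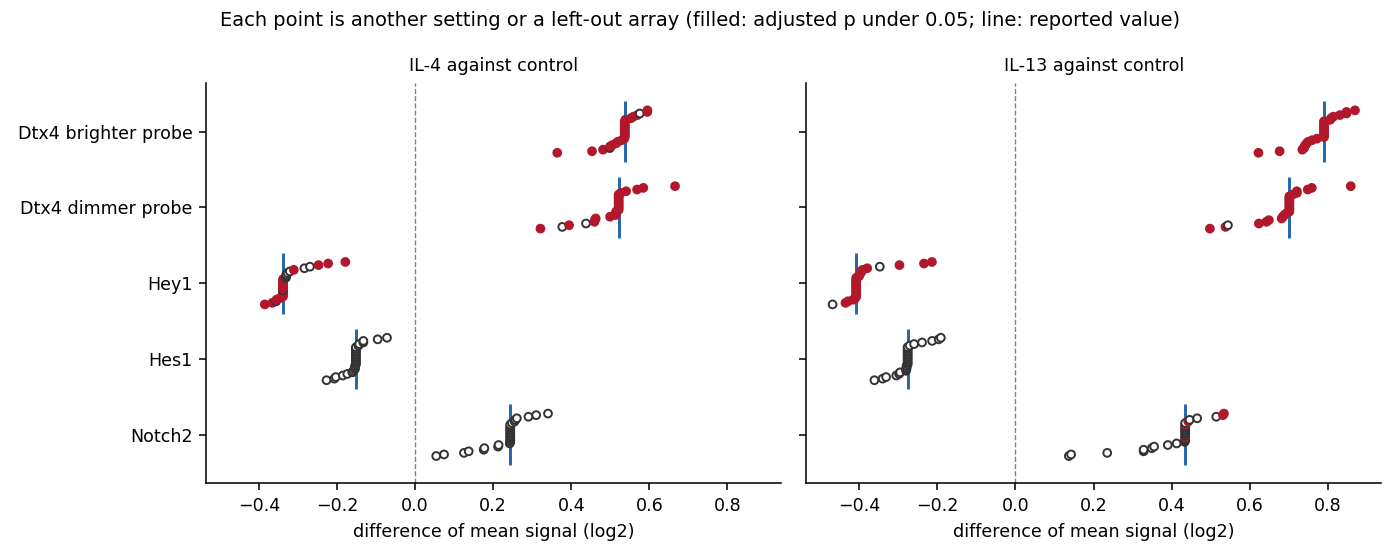
Difference of mean normalised signal (log2) of the Dtx4, Hey1, Hes1 and Notch2 probes under each alternative setting or with arrays left out, 1 point each, filled where the adjusted p was under 0.05, with the reported value as a vertical line. No point of these 5 probes crosses 0 in either comparison; the Dtx4 points lie between 0.32 and 0.87, and the Hey1 points lie between -0.47 and -0.18.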

How the data were processed

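RNA was measured on 12 Illumina mouse beadchip arrays in 3 groups of 4, and the labels gave each sample's group, chip and position. The submitters' processing notes name GenomeStudio 2011.1, without its settings. The table the authors deposited holds, per the file headers, a signal, which is a linear intensity not normalised between arrays, and, for all 45281 probes, a detection p-value. A second deposited table holds log2 values, found to be the log2 intensity plus a constant for each array (2.22 to 2.34) that sets every median to 8.97.

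Normalisation of the intensities used neqc of limma 3.58.1 under R 4.3.3 (background from the detection p-values, offset 16, quantiles, log2). The offset draws differences of dim probes toward 0. Probes with 1 gene symbol numbered 34885, and gene identifiers gave current symbols for 99.8% of these. All 12 arrays entered a single model fitted with lmFit and eBayes to the 19915 probes kept, two-sided, with p-values adjusted over them. Intervals are 95% intervals from the model. The fit was tested on simulated data. Named are all members, every gene of the pathway list past the threshold, and the 3 genes most like each called member. Itch, Rbpj, Nrarp, Sox9 and other uncalled genes of the list were named after their values were seen. The members, lists and tests were chosen with earlier results of these data known.

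The alternatives changed the offset, the background correction, the scaling, the detection filter, how a gene was read from its probes, the variance model, the weights of arrays or the groups fitted. Others used the deposited log2 values, a block for chip or replicate number, 1 chip, each array left out in turn, and the 3 hemoglobin-rich arrays left out together. The number of arrays limits the precision.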

Additional observations from a re-analysis of the deposited data

Results flagged for a closer look

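In 3 of the 33 sets of 4 arrays (11 probes in 3 groups), 1 array stood far from the other 3 by Dixon's criterion, which chance gives in about 1 of 20 sets. The dimmer Notch2 probe read 4.72 on IL-4 1, while the other IL-4 arrays read 4.22 to 4.28, and that array was the only one to detect it. The Notch3 probe read 4.59 on IL-4 2, while the other IL-4 arrays read 4.29 to 4.34. For Hey1, control 2 read 6.63 against 6.74 to 6.75 on the other control arrays. It lay on the side of the treated arrays.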

How the results depend on the processing

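The rise of Dtx4 and the fall of Hey1 kept their direction in all alternatives with both cytokines. The 2 members called with IL-4 became 0 on chip 1 alone and 0 on chip 2 alone, 1 with only the compared groups in the fit, 1 without the 3 hemoglobin-rich arrays, and 1 to 2 with 1 array left out. The 2 called with IL-13 became 1 on chip 1 alone, 1 on chip 2 alone, and 2 to 3 with 1 array left out. Fits on 1 chip have 2 arrays a group; other causes were not tested. Over all probes, 473 passed with IL-4, but 259 on chip 1, 128 on chip 2 and 216 without the hemoglobin-rich arrays, and 755 with IL-13, but 288 on each chip. Between the cytokines 2 probes passed with a trended robust variance and 1 on chip 1. In the wider list, 3 genes passed with IL-4 and 0 to 5 under the alternatives (5 without background correction), and 5 with IL-13 and 1 to 6 under the alternatives.

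Replicate numbers were not taken to pair the arrays, since not every r was over 0.1: same-numbered arrays of IL-4 and control deviated from their group means with r between -0.17 and 0.11 across probes, those of IL-13 and control between -0.016 and 0.18, and those of IL-13 and IL-4 between 0.013 and 0.10. In these comparisons 2, 2 and 1 of 4 correlated best with their own number. With the replicate number as a block, IL-4 gave 2 called members and IL-13 3, the added one being Notch2 (adjusted p 0.0313), the IL-13 call of Tle1 was lost (0.0606), and 460 and 737 probes passed.

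Differences near 0 changed sign. With the deposited log2 values Jag1 differed by -0.017 with IL-4 and by 0.019 between the cytokines, and Tle1 with IL-4 by -0.046, or -0.0063 with 75th percentile scaling. On chip 1 Jag2 differed by -0.051 with IL-13, and between the cytokines Notch1 by 0.0060, Jag1 by 0.023 and Jag2 by -0.0086. On chip 2 the IL-4 differences were 0.052 for Notch1, -0.075 for Jag1 and -0.055 for Tle1, and Jag1 differed by -0.12 with IL-13. Without the hemoglobin-rich arrays Jag1 differed by 0.0020 between the cytokines. With 1 array left out the IL-4 differences ranged from -0.11 to 0.065 for Notch1, -0.014 to 0.12 for Jag1 and -0.049 to 0.031 for Tle1, the IL-13 differences from -0.025 to 0.11 for Jag1 and -0.049 to 0.19 for Jag2, and that of Jag1 between the cytokines from -0.035 to 0.0028. Low signal over background limits what can be said of Notch3, Dll1 and the dimmer Notch2 probe.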
